A study of Mus musculus with 3 samples.

Results

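The transcription factors described here are those that mark T cells with stem-like properties: Tcf7, Lef1, Id3, Bach2, Bcl6, Foxo1, Satb1 and Myb. These 8 genes were taken by name from the 32285 genes of the count tables, and all 8 had unique molecular identifiers (UMIs, each counting 1 captured RNA molecule) in every library. Their UMIs were read in 3 groups of T cells, here called gates, that were set by the UMIs each cell held for Cd8a or Cd8b1, for Cd4 and for Foxp3. The study took CD3-sorted cells from MC38 tumours, a transplantable mouse colon carcinoma, at day 15 after 5 days of treatment, and counted RNA in single cells with a 10x Genomics 3′ kit. The groups were homo, mix and PBS, the last a saline buffer, with 1 library each. In its title the study concerns an interleukin-2 that is guided to LAG3, which activated T cells carry as an inhibitory receptor, but the labels say neither what homo and mix contained nor how many mice each library pooled. With 1 library per group no difference between groups has a replicate check, so no test was made and every interval below is a 95% interval for counting error only.

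TCF1, the product of Tcf7, and LEF1 are related DNA-binding proteins that act with beta-catenin or with Groucho/TLE corepressors and keep T cells able to renew themselves. In tumours and chronic infection, CD8 T cells that keep TCF1 while bearing PD-1 (Pdcd1) give rise to more differentiated cells that carry TIM-3 (Havcr2) and lose TCF1. ID3 blocks E proteins, BACH2 and BCL6 repress effector genes, FOXO1 drives homing and survival genes such as Ccr7, Klf2 and Il7r, SATB1 organises chromatin, and MYB sustains stem-like CD8 cells.

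The promoters of the members that differed most between the homo and PBS libraries, Bcl6 and Id3, are shown with matches to the palindrome TTCNNNGAA, the kind of element that STAT factors, which act downstream of interleukin-2 receptors, can bind. The sequences are from RefSeq (GRCm38.p6), 250 bases before to 50 after an annotated start, with matches in capitals. All 8 members matched the table, with 17 start sites in all. Both Bcl6 windows lie on the minus strand, start 1 at chr16:23988803-23989102 and start 2 at chr16:23981234-23981533, and the Id3 window lies on the plus strand at chr4:136143572-136143871.
Bcl6 start 1: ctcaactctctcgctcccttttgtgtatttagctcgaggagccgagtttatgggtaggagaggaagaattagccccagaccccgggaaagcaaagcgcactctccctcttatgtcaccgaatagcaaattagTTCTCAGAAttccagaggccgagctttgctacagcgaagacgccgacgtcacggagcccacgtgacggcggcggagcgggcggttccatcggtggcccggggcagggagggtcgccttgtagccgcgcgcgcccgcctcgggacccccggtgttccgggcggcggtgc
Bcl6 start 2: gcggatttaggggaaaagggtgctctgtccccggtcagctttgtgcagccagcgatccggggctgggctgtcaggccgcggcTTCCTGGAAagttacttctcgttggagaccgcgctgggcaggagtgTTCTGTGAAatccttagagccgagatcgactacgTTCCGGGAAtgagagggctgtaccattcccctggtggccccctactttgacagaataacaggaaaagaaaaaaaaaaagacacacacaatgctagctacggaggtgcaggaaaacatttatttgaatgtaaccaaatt
Id3: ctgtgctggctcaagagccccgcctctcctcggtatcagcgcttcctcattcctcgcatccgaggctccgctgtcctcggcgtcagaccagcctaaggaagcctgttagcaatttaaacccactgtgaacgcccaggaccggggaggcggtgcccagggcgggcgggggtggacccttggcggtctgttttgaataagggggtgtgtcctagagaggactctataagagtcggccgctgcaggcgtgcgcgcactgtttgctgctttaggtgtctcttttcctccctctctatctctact
The window at Bcl6 start 2 held 3 matches, beginning at -168, -122 and -88 from the start, start 1 held 1 at -118, and the Id3 window held 0. The palindrome reads the same on both strands, and at least 1 match was found in 8.30% of the 32851 mouse promoters of the same length, against at least 3 in 0.0335%. The cut of 3 equals the count at Bcl6 start 2, the highest among the 17 start sites, so that share is no test of this window. The only other match among the 17 start sites was 1 at Bach2, on the plus strand at chr4:32417185-32417484. The TCF/LEF core CTTTGA, searched on both strands, was found at 3 of the 17 start sites against 16.0% of all promoters, and the FOXO core GTAAACA at 2 of 17 against 3.65%. These matches are letters in a window, and the start that the T cells used was not measured.

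After filters on depth, mitochondrial share and doublet score, the homo, mix and PBS libraries kept 7303, 7588 and 9214 cells, with median depths of 6814, 4964.5 and 4656 UMIs. The CD8 gate held 6517, 5587 and 7117 of these cells, the CD4 gate (Cd4 found, no CD8 gene and no Foxp3) 70, 309 and 317, and the Foxp3 gate (Foxp3 found, no CD8 gene) 124, 807 and 842. Among the cells kept, 83 barcodes were shared between homo and PBS, 101 between mix and PBS and 74 between homo and mix, and without them every member ratio between libraries stayed within its counting interval. Macrophage markers summed to 2.78, 4.98 and 16.5 CPM (UMIs of a gene scaled to a fixed total of UMIs per gate and library) in the CD8 gate of homo, mix and PBS, so macrophage RNA was near 0 there. Dendritic markers summed to 16.7, 51.4 and 64.8 CPM, of which Cd74 made up 5.18, 34.8 and 41.8 CPM. Only 2 macrophage barcodes were deep enough to serve as a measure of free RNA, which is too few, so the background behind a single UMI is not known.

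The gates carried different sets of the factors. In all 3 libraries Tcf7, Lef1 and Satb1 were higher in the CD4 gate than in the CD8 gate, while Bach2 had its lowest levels in the Foxp3 gate, as did Tcf7 in mix and PBS. Tcf7 reached 174, 341 and 260.1 CPM in the CD4 gate of homo, mix and PBS, against 44.3, 41.4 and 37.4 CPM in the CD8 gate and 29.3, 6.78 and 9.31 CPM in the Foxp3 gate. In mix and PBS its CD4-gate level was 50.3-fold and 27.9-fold that of the Foxp3 gate, whereas in homo the ratio was 5.95-fold and the Foxp3-gate value rested on 14 UMIs in 4 cells. Ordered by level over the 9 combinations of gate and library, Tcf7 ran CD4, then CD8, then Foxp3, but within homo the Foxp3 and CD8 gates were not separated (log2 -0.60, -1.47 to 0.15). The neighbours that counting error did not separate were PBS CD8 beside homo Foxp3 and PBS Foxp3 beside mix Foxp3.

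Bach2 had the same order of gates, with 58.0, 112 and 95.2 CPM in the CD4 gate of homo, mix and PBS, 53.2, 53.9 and 52.8 CPM in the CD8 gate and 23.0, 5.60 and 9.61 CPM in the Foxp3 gate. Ordered by level, its 6 values in the CD4 and CD8 gates were not set apart from one to the next by counting error. Within a library, the CD4 gate was above the CD8 gate in mix (log2 1.06, 0.78 to 1.32) and PBS (0.85, 0.53 to 1.16). In homo these 2 gates were not separated for Bach2 (log2 0.12, -0.685 to 0.83). Foxo1 was ordered otherwise: it was lowest in the CD8 gate of every library, at 35.1, 35.4 and 36.2 CPM, and stood at 102, 114 and 93.1 CPM in the Foxp3 gate of homo, mix and PBS, although in homo its CD4-gate and CD8-gate levels were not separated (log2 0.63, -0.21 to 1.36). Myb in mix and PBS had 34.5 and 27.9 CPM in the Foxp3 gate, 18.7 and 17.1 CPM in the CD4 gate and 5.82 and 6.05 CPM in the CD8 gate, and in PBS the Foxp3 and CD4 gates were not separated (log2 0.71, -0.07 to 1.57). In homo, Myb had 5 UMIs in the Foxp3 gate (10.5 CPM) and its ratio to the CD8 gate, 0.50 on the log2 scale (-1.13 to 1.74), could not be told from 0. Satb1, the member with the most UMIs in the CD8 gate, had 141, 222 and 246 CPM in the CD4 gate, 169, 143 and 146 CPM in the Foxp3 gate and 83.3, 97.2 and 103 CPM in the CD8 gate of homo, mix and PBS. Levels are compared within a gene only, since 3′ counts do not put different genes on 1 scale.

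**Figure D1:**
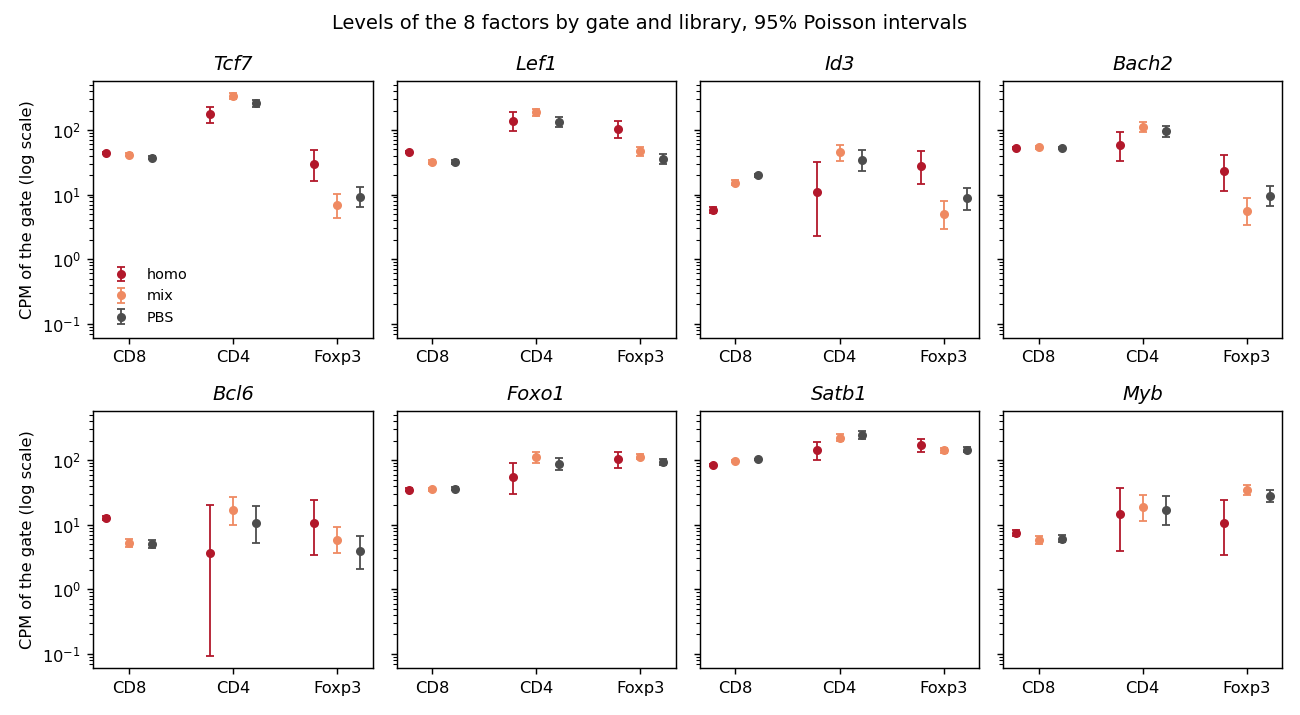
CPM of each member (log axis) in the CD8, CD4 and Foxp3 gates, with homo, mix and PBS from left to right in each gate and bars for 95% Poisson intervals of the UMI count. Bach2 is lowest in the Foxp3 gate, as is Tcf7 in mix and PBS, Foxo1 is lowest in the CD8 gate, and the homo intervals in the CD4 and Foxp3 gates are wide because those gates held 70 and 124 cells.

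In CD8-gated cells the clearest differences between homo and PBS were less Id3 and more Bcl6 in homo, with Lef1 and Tcf7 higher by smaller amounts. Id3, the E protein inhibitor, had 5.74 CPM in homo, 15.3 CPM in mix and 19.7 CPM in PBS, from 293, 545 and 812 UMIs. Its log2 ratio was -1.78 (-1.98 to -1.59) for homo over PBS, so PBS held 3.43-fold the homo level, and -0.36 (-0.52 to -0.20) for mix over PBS. Bcl6, the repressor, had 12.6 CPM in homo, 5.23 CPM in mix and 4.98 CPM in PBS, from 644, 186 and 205 UMIs. Bcl6 in homo was 2.54-fold PBS (log2 ratio 1.34, 1.11 to 1.58), while mix over PBS was 0.07 (-0.22 to 0.37). Homo thus stood apart for both genes, while the smaller Id3 step between mix and PBS varied with the cells read. Over the alternatives tried, the log2 ratio of that step ran from -0.406 to -0.197. In cells thinned to equal depth and without Mki67 or Top2a it was -0.19 (-0.46 to 0.08), so its direction was not clear. It was -0.75 (-1.12 to -0.39) in thinned cells without a Tcf7 UMI and 0.31 (-0.10 to 0.72) in those with one.

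Lef1 had 46.1 CPM in homo, 31.9 CPM in mix and 31.9 CPM in PBS, a log2 ratio of 0.53 (0.43 to 0.63) for homo over PBS and of 0.53 (0.43 to 0.64) for homo over mix. Over the alternatives tried, the Lef1 ratio for homo over mix was as low as 0.215, as a mean of per-cell CPM. In thinned cells without Mki67 or Top2a it was 0.13 (-0.06 to 0.32), beside 0.29 (0.10 to 0.48) for mix over PBS and 0.42 (0.24 to 0.60) for homo over PBS. Tcf7, with 44.3, 41.4 and 37.4 CPM in homo, mix and PBS, had log2 ratios of 0.24 (0.15 to 0.34) for homo over PBS and 0.15 (0.04 to 0.25) for mix over PBS. Lef1 and Tcf7 were therefore above PBS in homo by less than 1.5-fold, and the place of mix between them depended on the handling of depth for Lef1. Satb1, the chromatin organiser, had a log2 ratio of -0.30 (-0.37 to -0.24) for homo over PBS and -0.08 (-0.15 to -0.02) for mix over PBS. Bach2, at 53.2, 53.9 and 52.8 CPM in homo, mix and PBS, had a log2 ratio of 0.01 (-0.07 to 0.09) for homo over PBS, and Foxo1 one of -0.05 (-0.15 to 0.05). These intervals leave no room for a 1.5-fold difference in Bach2 or Foxo1 from counting error, though the spread between animals is unknown. Myb had 7.39, 5.82 and 6.05 CPM in homo, mix and PBS, a log2 ratio of 0.29 (0.05 to 0.53) for homo over PBS. In cells without a UMI of the proliferation genes Mki67 or Top2a this Myb ratio was -0.36 without thinning and 0.03 (-0.53 to 0.59) in cells thinned to 2000 UMIs each, so no direction can be read for it there.

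**Figure D2:**
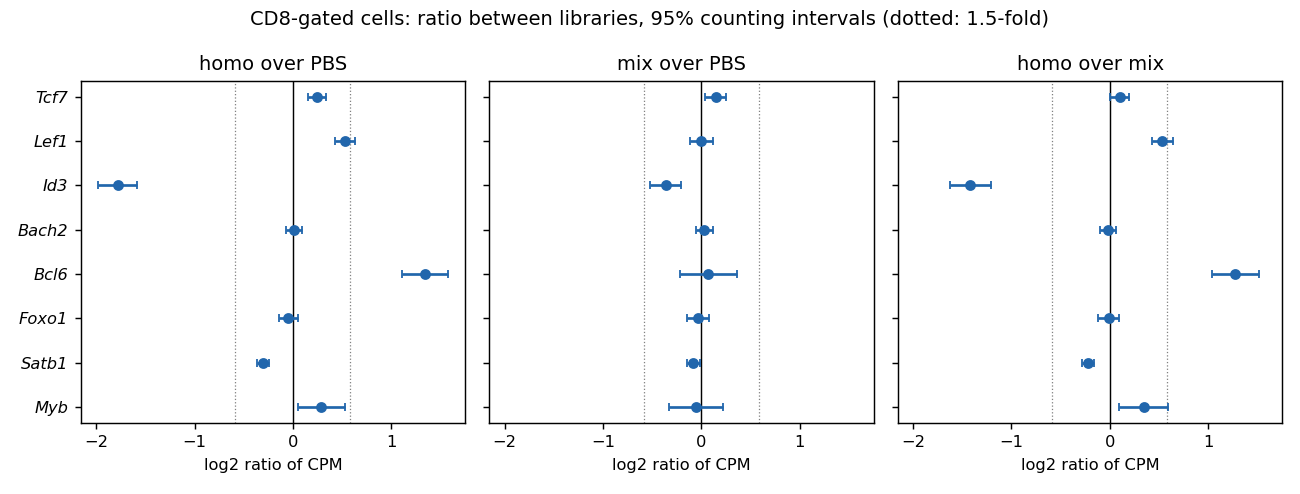
Log2 CPM ratio of each member in CD8-gated cells for homo over PBS, mix over PBS and homo over mix, with 95% counting intervals and dotted lines at 1.5-fold. Id3 lies at -1.78 and Bcl6 at 1.34 for homo over PBS, and no member passes 1.5-fold for mix over PBS.

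Against all genes, these ratios were read at a level of 50 CPM in either library and a fold of 1.5. Only Bach2 and Satb1 of the 8 members reached that level in the CD8 gate, and 0 of them were called in any of the 3 comparisons. The background for homo over PBS was 3.02% of 3017 genes higher and 4.71% lower, for mix over PBS 0.407% and 0.475% of 2947 genes, and for homo over mix 2.83% and 4.76% of 3003 genes. At a level of 5 CPM, chosen after the data were seen, all 8 members were measured: Bcl6 was higher and Id3 lower in homo over PBS, against 3.75% higher and 5.18% lower of all genes. The same counts of 1 and 1 were found for homo over mix, against 3.87% and 5.08%, and 0 and 0 for mix over PBS, against 0.747% in each direction. The 2 members that passed the level of 50 CPM had a median log2 ratio of -0.15 for homo over PBS, beside -0.05 for all genes at that level.

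Surface and homing genes that accompany the factors did not move as a block in CD8-gated cells. Of 20 such genes 9 reached 50 CPM in homo or PBS, and 2 were higher, 2 lower and 5 between, with a median log2 ratio of 0.16. Emb, an adhesion-related surface glycoprotein, had 177 CPM in homo, 78.2 CPM in mix and 91.8 CPM in PBS, and the chemokine receptor Cxcr3 83.8, 46.5 and 54.2 CPM. Klf2, the FOXO1 target that drives egress from tissue, had 65.1 CPM in homo, 182 CPM in mix and 226 CPM in PBS, a log2 ratio of -1.80 for homo over PBS. The lymph node homing receptor Ccr7 had 16.7 CPM in homo, 47.6 CPM in mix and 50.05 CPM in PBS. Il7r, a further FOXO1 target, had 335 CPM in homo, 222 CPM in mix and 277 CPM in PBS, a log2 ratio of 0.27 (0.24 to 0.31) for homo over PBS. The FOXO1 targets named here thus had different directions. For mix over PBS, 0 of 9 genes of this list were called, and for homo over mix Emb, Cxcr3 and Il7r were higher and Klf2 lower among 8.

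Effector and exhaustion factors, such as Tox and Bhlhe40, had a median log2 ratio of 0.0047 for homo over PBS, with 0 of 11 higher and 1 lower. The lower gene was Bhlhe40, a repressor induced by T cell activation, at 271, 466 and 529 CPM in homo, mix and PBS. Tox, the exhaustion factor, had 201, 184 and 145 CPM in homo, mix and PBS, and Ikzf2 160, 129 and 120.2 CPM, both less than 1.5-fold apart. Nr4a2, induced by receptor signalling, had 142 CPM in homo, 210.5 CPM in mix and 206 CPM in PBS. Among the partners and relatives of the factors, 0 of the 7 measured genes were called in either direction, with a median of 0.15. Ctnnb1, which encodes beta-catenin, had 70.0, 64.4 and 55.9 CPM in homo, mix and PBS. The Groucho-related Tle5 (664, 653 and 644 CPM) and Foxp1 (92.9, 101 and 92.0 CPM), a factor of naive T cells, stood nearest to no difference.

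Because the libraries differed in depth, cells with at least 2000 UMIs were thinned at random to 2000 UMIs before shares of cells were compared, which left out 403, 299 and 334 CD8-gated cells of homo, mix and PBS. Id3 was found in 1.11% of thinned CD8 cells in homo, 2.80% in mix and 3.35% in PBS, and in 2.67%, 5.01% and 5.70% without thinning. Bcl6 was found in 2.55%, 1.32% and 1.15% of thinned cells, and Lef1 in 8.47%, 6.49% and 5.90%. Unthinned, the Lef1 share was 23.6%, 12.1% and 12.3%, a wider gap between homo and PBS than after thinning. Tcf7 was found in 7.67%, 7.66% and 6.31% of thinned cells. Tcf7-positive cells held 1.64 Tcf7 UMIs each in homo, 1.49 in mix and 1.45 in PBS after thinning. Without thinning, cells with a Tcf7 UMI held 2.73, 2.19 and 2.1, and the median depth of CD8-gated cells was 6912, 5651 and 5113 UMIs.

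The members sorted differently over the course from cells with Pdcd1 at 0 to cells with both Pdcd1 and Havcr2 found. Thinned CD8 cells were split by UMIs into Pdcd1 at 0 (33.3%, 42.4% and 43.9% of cells in homo, mix and PBS), Pdcd1 without Havcr2 (49.2%, 41.3% and 39.2%), and both genes found (17.5%, 16.3% and 16.9%). Either gene at 0 in a thinned cell may still be expressed. With classes read from all UMIs instead, 33 member levels moved out of their counting interval and 39 stayed within it. Tcf7 had 128, 111 and 83.6 CPM in homo, mix and PBS cells with Pdcd1 at 0, and 38.9, 23.1 and 22.8 CPM in cells with Pdcd1 alone. In cells with both genes Tcf7 was close to absent, with 14, 4 and 3 UMIs. The Tcf7 level of homo was thus above PBS in each class, with log2 ratios of 0.61 (0.43 to 0.79) in cells with Pdcd1 at 0 and 0.77 (0.45 to 1.10) in cells with Pdcd1 alone. Id3 followed the same course, at 15.5, 39.2 and 44.2 CPM in homo, mix and PBS cells with Pdcd1 at 0, 3.65, 6.19 and 6.59 CPM with Pdcd1 alone, and 1, 1 and 2 UMIs with both.

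Lef1 departed from this course in homo. Cells with both Pdcd1 and Havcr2 had 40.7 CPM of Lef1 in homo (87 UMIs in 76 cells), 6.94 CPM in mix (12 UMIs) and 9.15 CPM in PBS (21 UMIs). The ratio in these cells was 4.45-fold for homo over PBS (log2 2.16, 1.45 to 2.92) and 2.55 on the log2 scale for homo over mix (1.68 to 3.56). In cells with Pdcd1 at 0 the same gene had 74.4, 83.2 and 61.0 CPM in homo, mix and PBS, a log2 ratio of 0.29 (0.06 to 0.51) for homo over PBS. Within the homo library, Lef1 in cells with both genes was level with that in cells with Pdcd1 alone (log2 0.14, -0.24 to 0.50), while in mix and PBS it was lower (-1.17 and -1.08). The higher Lef1 of homo therefore lay mainly in cells with a Pdcd1 UMI. Bcl6 in cells with both genes was 10.8, 4.05 and 1.31 CPM in homo, mix and PBS, the last from 3 UMIs, and 15.0, 7.58 and 7.89 CPM in cells with Pdcd1 at 0.

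Every member had UMIs in all 3 classes of each library, but those of Myb in cells with both genes were few. They numbered 12, 3 and 9 in homo, mix and PBS. Bach2 had 70.7, 79.4 and 67.5 CPM in homo, mix and PBS cells with Pdcd1 at 0 and 42.1, 41.1 and 37.5 CPM in cells with both genes. Foxo1 had 43.2, 44.4 and 46.3 CPM in homo, mix and PBS with Pdcd1 at 0, and 37.5, 28.4 and 32.7 CPM with both. Satb1 had 126, 147 and 136 CPM with Pdcd1 at 0 and 73.5, 77.6 and 86.7 CPM with both. The log2 ratio of cells with both genes over cells with Pdcd1 at 0 was -0.75, -0.95 and -0.85 for Bach2 and -0.78, -0.92 and -0.65 for Satb1 in homo, mix and PBS, against -4.28, -5.59 and -6.00 for Tcf7. For Foxo1 it was -0.21, -0.65 and -0.50, and the homo interval held 0. Myb had 8.60, 5.80 and 6.72 CPM with Pdcd1 at 0 and 5.62, 1.74 and 3.92 CPM with both, and its interval excluded 0 in mix only (-1.74, -4.11 to -0.03).

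**Figure D3:**
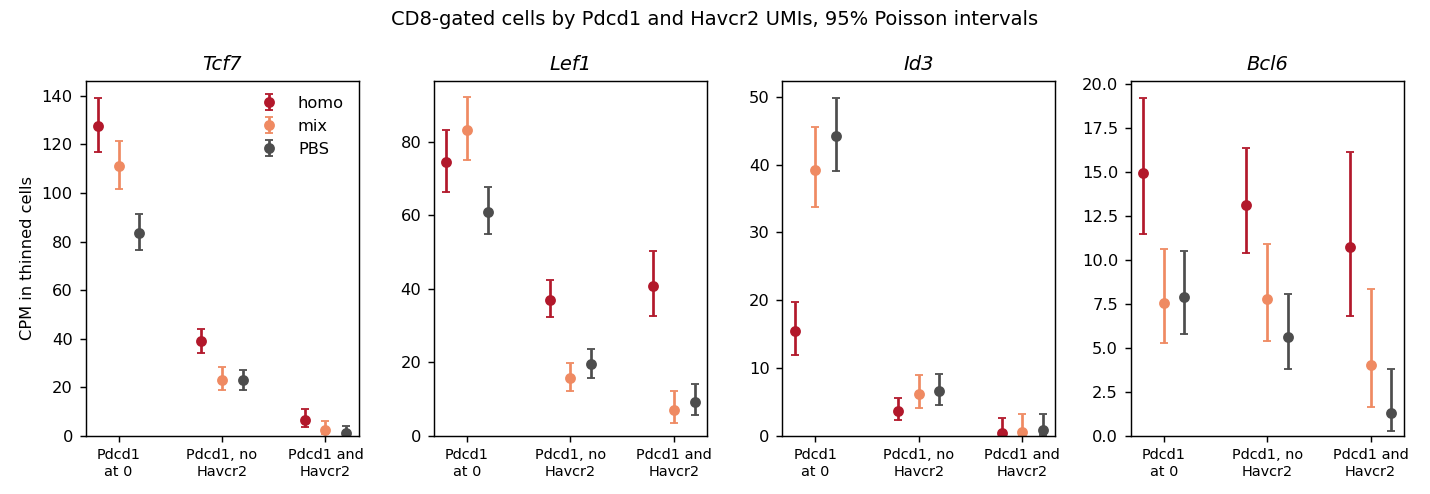
CPM of Tcf7, Lef1, Id3 and Bcl6 in CD8-gated cells thinned to 2000 UMIs, by Pdcd1 at 0, Pdcd1 without Havcr2 and both found, with homo, mix and PBS from left to right and 95% Poisson intervals. Tcf7 and Id3 are near 0 in cells with both genes in every library, while Lef1 in homo keeps 40.7 CPM in cells with both genes, against 9.15 CPM in PBS.

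In single thinned CD8 cells most pairs of members were found together more often than the product of their shares gives. Of the 28 pairs, 24 had an observed count above the product in all 3 libraries, and 14 were at least 1.5-fold above it in all 3. Below the product were 2 pairs in homo, 1 in mix and 1 in PBS, the last at 0.992 times the product. In homo, Id3 with Bach2 had 5 cells, with 6.64 from the product. In mix, Bcl6 with Myb had 0 cells, with 0.556 from the product. The numbers for these named pairs are too small to read. The median over pairs was 1.65 in homo, 2.16 in mix and 1.94 in PBS. Pairs of other genes were not counted in this way, so how unusual these counts are is not known. Tcf7 with Id3 was the most extreme pair in every library, at 7.29, 6.35 and 4.89 times the product. Id3 was found in 8.10%, 17.8% and 16.4% of Tcf7-positive cells of homo, mix and PBS, against 0.531%, 1.56% and 2.47% of Tcf7-negative cells. Tcf7 with Lef1 stood at 2.57 times the product in homo, 5.29 in mix and 4.48 in PBS. Lef1 was found in 21.7%, 34.3% and 26.4% of Tcf7-positive cells and in 7.37%, 4.18% and 4.52% of Tcf7-negative cells of homo, mix and PBS, so the looser pairing in homo went with more Lef1 outside Tcf7-positive cells. No member was found in 62.0%, 64.8% and 63.4% of cells, and 3 or more in 3.40%, 4.56% and 3.29%. All of these cells share a library and a fixed depth, and a gene at 0 in a thinned cell may be expressed.

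**Figure D4:**
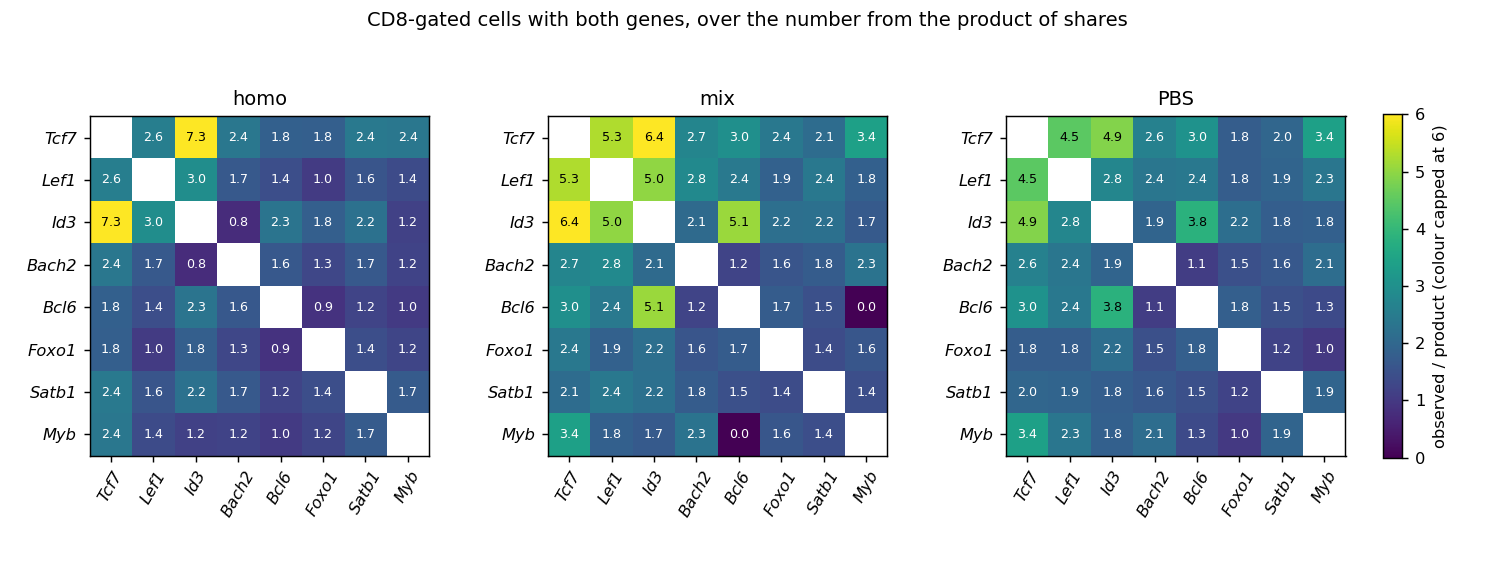
Observed over expected cells for each of the 28 pairs of members in thinned CD8 cells of homo, mix and PBS, where expected is the product of both shares and colours are capped at 6. Tcf7 with Id3 is at 7.29, 6.35 and 4.89, and Tcf7 with Lef1 is darker, that is lower, in homo (2.57) than in PBS (4.48).

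Tcf7-positive CD8 cells held Pdcd1 in a larger share in homo than in mix or PBS, as did CD8 cells as a whole, at 66.7%, 57.6% and 56.1% of thinned cells. In Tcf7-positive cells Pdcd1 was found in 35.2% in homo (30.9% to 39.7%), 19.5% in mix (15.8% to 23.7%) and 22.7% in PBS (18.8% to 26.9%), out of 469, 405 and 428 thinned cells. The homo interval lay apart from both others. Cells with Tcf7 and Pdcd1 made up 2.70% of thinned CD8 cells in homo, 1.49% in mix and 1.43% in PBS. Slamf6, a surface marker of progenitor exhausted cells, was found in 12.6%, 12.8% and 11.2% of Tcf7-positive cells, and these intervals overlapped. In Tcf7-positive cells, Klf2 had 266, 684 and 654 CPM and Pdcd1 359, 198 and 221 CPM in homo, mix and PBS. Id3 there had 55.4 CPM in homo, 136 CPM in mix and 110 CPM in PBS, a log2 ratio of -0.99 for homo over PBS, against -2.43 in Tcf7-negative cells (3.01, 9.63 and 16.2 CPM). In all 3 libraries Tcf7-positive cells held less of the cytotoxic gene Gzmb than Tcf7-negative ones, with log2 ratios of -2.73, -2.00 and -1.57 in homo, mix and PBS, and more Slamf6, with 3.05, 3.38 and 3.31.

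The genes whose pattern over cells was most like each member were ranked by the smallest of the 3 libraries' log2 ratios between thinned CD8 cells with and without a UMI of that member. Among the 2332 genes ranked for Tcf7, those near the top included Nsg2 (3.87), Pde2a (3.32), Aff3 (3.28) and Klf3 (3.23). For Lef1 they included Pde2a (2.91), Fam241a (2.07), S1pr1 (2.03) and Ccr7 (1.82), and for Id3 Treml2 (3.09), Nsg2 (3.04), Pde2a (2.94) and Tcf7 (2.57). Tcf7 was among the 5 leading genes of Id3, Bach2, Bcl6, Foxo1 and Satb1. Bach2 was accompanied by Ccr7 (1.84) and Tcf7 (1.56), and Bcl6 by Tcf7 (1.11) and Lef1 (0.97). Foxo1 was accompanied by Tcf7 (1.10) and Thada (0.78), and Satb1 by Tcf7 (1.46) and Ccr7 (1.42). Myb was not ranked, since mix held only 42 thinned CD8 cells with a Myb UMI.

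The CD4 gate was small in homo, and the summed level of each member lay below that of mix. The interval held 0 for Lef1 (log2 -0.44, -0.98 to 0.07), Bcl6 (-2.21, -7.59 to 0.45) and Myb (-0.37, -2.37 to 1.21). Tcf7 had 174 CPM in homo (48 UMIs in 27 cells), 341 CPM in mix and 260.1 CPM in PBS, with log2 ratios of -0.97 (-1.44 to -0.53) for homo over mix, -0.58 (-1.06 to -0.13) for homo over PBS and 0.39 (0.15 to 0.63) for mix over PBS. Lef1 had 138 CPM in homo, 187 CPM in mix and 132 CPM in PBS, with log2 ratios of 0.51 (0.17 to 0.84) for mix over PBS and 0.07 (-0.50 to 0.60) for homo over PBS. Satb1 had 141, 222 and 246 CPM in homo, mix and PBS. Foxo1, with 54.4, 110 and 87.8 CPM, had a log2 ratio of -0.69 for homo over PBS whose interval held 0 (-1.59 to 0.12). Id3 rested on 3 UMIs in 1 cell of homo, with a log2 ratio of -2.04 (-4.37 to -0.41) for homo over mix and an interval that held 0 for homo over PBS, and Bcl6 rested on 1 UMI in homo.

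At 50 CPM, 5 members were measured in the CD4 gate. For homo over PBS 3 were lower (Bach2, Foxo1 and Satb1) and 0 higher, against 13.4% of all genes lower and 9.93% higher, and the counting intervals of Bach2 and Foxo1 held 0. For homo over mix 4 were lower (Tcf7, Bach2, Foxo1 and Satb1), against 11.4% lower and 10.6% higher. For mix over PBS 0 were called, against 2.21% higher and 2.66% lower. At 5 CPM, the level added after the data were seen, 0 members were higher and 5 lower for homo over PBS (18.5% and 22.7% of all genes), 0 and 6 for homo over mix (18.1% and 22.0%), and 1 and 0 for mix over PBS (11.6% in each direction). The homo counts depend on the handling of depth: with levels from thinned cells 0 members were lower in homo over PBS and 1 in homo over mix. Shares of thinned CD4-gated cells with Tcf7 were 29.0%, 34.6% and 26.9% in homo, mix and PBS, and those with Satb1 25.8%, 30.4% and 29.4%. Lef1 had another order, found in 29.0% of thinned cells in homo (18 of 62), 25.9% in mix (68 of 263) and 49 of 245 cells in PBS, and in 44.3%, 32.7% and 22.4% of unthinned cells.

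Markers of antigen-presenting cells differed in level between the CD4 gates. The dendritic list summed to 47.1, 275 and 1168 CPM in homo, mix and PBS, with 4, 3 and 2 of its 7 genes at 0, and Cd74 and H2-Ab1 made up most of it, with Cd74 at 32.6, 229 and 904 CPM. The other 5 dendritic genes, Flt3, Xcr1, Clec9a, Cd209a and Itgax, were each at 0 to 3.21 CPM in PBS. The macrophage list summed to 0, 3.74 and 30.0 CPM, with 7, 4 and 1 of its 7 genes at 0. Without cells that had a UMI of Cd74 or H2-Ab1, an alternative added after the data were seen, the log2 ratio of Tcf7 was -0.85 for homo over PBS and 0.28 for mix over PBS. The homing gene Ccr7 had 29.0, 188 and 326 CPM in the CD4 gate of homo, mix and PBS, and its part in these values was not tested. The regulatory markers Il2ra, Ikzf2 and Ctla4 summed to 1142 CPM in the CD4 gate of homo and 1260 CPM in that of mix. In the CD8 gate they summed to 371 and 353 CPM. Whether Foxp3 was missed in some CD4-gated cells was not tested. In sums over a gate, fewer cells expressing a gene and less RNA per cell cannot be told apart.

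In the Foxp3 gate the member with the most support for a difference was Lef1. It had 102 CPM in homo (49 UMIs in 29 cells), 46.9 CPM in mix and 35.5 CPM in PBS, with log2 ratios of 1.53 (1.02 to 2.02) for homo over PBS, 1.13 (0.64 to 1.60) for homo over mix and 0.40 (0.05 to 0.76) for mix over PBS. It was found in 15.7%, 9.58% and 6.68% of thinned cells of homo, mix and PBS. The log2 ratio of Lef1 for homo over PBS was 0.53 in the CD8 gate and 0.07 (-0.50 to 0.60) in the CD4 gate, and the difference between gates was not tested. Lef1 was the 1 member called higher among the 3 measured at 50 CPM for homo over PBS, against 8.12% of all genes higher and 7.36% lower, and for homo over mix, against 6.85% and 6.64%. For mix over PBS 0 members were called, against 0.381% in each direction. At 5 CPM, 5 members were higher and 1 lower for homo over PBS (16.7% and 14.6% of all genes) and for homo over mix (16.5% and 14.1%), and 1 was higher and 2 lower for mix over PBS (3.34% and 4.26%).

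Tcf7 was scarce in this gate. It had 14 UMIs in 4 cells of homo, 8 of them in 1 cell, 23 UMIs in 12 cells of mix and 31 UMIs in 19 cells of PBS, and was found in 1.85%, 0.986% and 1.95% of thinned cells. Its log2 ratio of 1.65 for homo over PBS became -0.46 without cells that had a UMI of Mki67 or Top2a. Id3 had 13 UMIs in 7 cells of homo, with a log2 ratio to PBS of 1.64 that became 0.51 without the same cells. The Id3 ratio became 3.12 without cells that had a UMI of Cd74 or H2-Ab1. Myb had 10.5 CPM in homo (5 UMIs in 4 cells), 34.5 CPM in mix and 27.9 CPM in PBS, a log2 ratio of -1.42 (-3.07 to -0.14) for homo over PBS. This Myb ratio became -0.353 with levels from thinned cells and -0.520 as a mean of per-cell CPM. Foxo1, at 102, 114 and 93.1 CPM, and Satb1, at 169, 143 and 146 CPM in homo, mix and PBS, differed by less than 1.5-fold.

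The markers of the gate differed too. Foxp3 had 757, 784 and 796 CPM in homo, mix and PBS, Ctla4 719, 1134 and 1327 CPM, Il2ra 563, 867 and 802 CPM, and Ikzf2 1359, 1026 and 938 CPM. Cd4 was found in 39.5% of Foxp3-gated cells of homo, 50.1% of mix and 44.9% of PBS. Among the Foxp3-gated cells with a UMI of Cd4, an alternative added after the data were seen, Lef1 had a log2 ratio of 1.04 for homo over PBS. The part of these marker levels in the member values was not tested.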

How the data were processed

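The deposited count tables hold UMI counts per gene and cell barcode, not normalized, for 3 libraries (homo, mix and PBS). Per the file headers, Cell Ranger 7.1.0 wrote them. Cell Ranger 2.1.1 stands instead in the submitters' processing notes, beside mm39 and Seurat 4.1.0. The counts summed to 65336646 UMIs over 8528 barcodes in homo, 49179708 over 8461 in mix and 56427870 over 10351 in PBS. Cells were barcodes with 500 genes or more, 1000 UMIs or more and a mitochondrial share under 10%. Scrublet (scanpy 1.11.5) found 0, 0 and 1 doublets at its own threshold in homo, mix and PBS, so the top scores were removed at 0.8% per 1000 barcodes kept (485, 527 and 803). Gates needed 1 UMI of Cd3d, Cd3e or Cd3g and 1 UMI of the gate gene.

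UMIs were summed per gate and scaled to CPM. Ratios have exact conditional binomial intervals, levels Poisson and shares Clopper-Pearson intervals, all at 95% and for counting error only. Shares and classes used cells thinned to 2000 UMIs. The ratio code was tested on simulated data. Genes were called past 1.5-fold at 50 CPM in either library. Genes named from each list were the most extreme 2 in each direction of homo over PBS at 50 CPM in CD8-gated cells. Some genes that these rules name are not reported here. The members and lists were chosen with earlier results of these data known. Alternatives covered filters, gates, thinning, scaling and proliferating cells. The software was scipy 1.17.1, pandas 2.3.3 and numpy 2.4.6 under Python 3.11.15. Motif searches used RefSeq promoters of GRCm38.p6, not the build of the counts.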

Additional observations from a re-analysis of the deposited data

Results flagged for a closer look

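Several members had opposite directions in different gates, with 1 library per group, and the difference between gates was not tested. Some of these directions changed with the cells read. For homo over PBS, the log2 ratio of Tcf7 was 0.24 in the CD8 gate, -0.58 in the CD4 gate and 1.65 in the Foxp3 gate, the last from 14 UMIs in homo. Id3 for homo over PBS was -1.78 in the CD8 gate and 1.64 in the Foxp3 gate, where homo had 13 UMIs in 7 cells. Myb for homo over PBS was 0.29 in the CD8 gate and -1.42 in the Foxp3 gate, where homo had 5 UMIs. Without cells that had a UMI of Mki67 or Top2a, Tcf7 in the Foxp3 gate became -0.456 and Id3 there 0.512. Myb in the CD8 gate became -0.360 without the same cells. With levels from thinned cells, Myb in the Foxp3 gate became -0.353.

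For homo over mix, the log2 ratio of Tcf7 was 0.10 in the CD8 gate, -0.97 in the CD4 gate and 2.11 in the Foxp3 gate. Id3 was -1.42 in the CD8 gate, -2.04 in the CD4 gate, from 3 UMIs in 1 homo cell, and 2.44 in the Foxp3 gate. Bach2 was -0.95 in the CD4 gate and 2.04 in the Foxp3 gate. Myb was 0.34 in the CD8 gate and -1.72 in the Foxp3 gate. Each of these Foxp3-gate values rests on 14 UMIs or fewer in homo. Over the alternatives tried, the Myb ratio for homo over mix in the CD8 gate ran from -0.119 to 0.607.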

How the results depend on the processing

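No paired analysis was possible because each group has 1 library and the labels give no replicate numbers. Over 11 alternatives, the log2 ratio for homo over PBS in the CD8 gate ran from -1.86 to -1.57 for Id3, 1.18 to 1.41 for Bcl6, 0.39 to 0.60 for Lef1, 0.20 to 0.45 for Tcf7 and -0.32 to -0.24 for Satb1. For Lef1 it ran from 0.215 to 0.611 for homo over mix and from -0.0109 to 0.255 for mix over PBS. Of 255 recomputed counts and Tcf7 shares, 222 stayed within their limit and 33 moved, and the cause was not tested.

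At 5 CPM (added after seeing the data), members higher and lower were 1 and 1 in the CD8 gate for homo over PBS and for homo over mix, and 5 and 1 in the Foxp3 gate for both. At that level 5 were lower in the CD4 gate for homo over PBS, 1 higher there for mix over PBS, and 1 higher and 2 lower in the Foxp3 gate for mix over PBS. At 20 CPM the Foxp3 gate gave 4 higher and 1 lower for homo over PBS and for homo over mix. With 2 UMIs of the gate genes, 2 members were higher in the CD4 gate for mix over PBS. With gates read from thinned cells, 2 were lower there for homo over mix, and Foxo1 for homo over PBS turned to 0.0392. As a mean of per-cell CPM, 0 were lower there for homo over PBS. Levels from thinned cells gave 0 lower for homo over PBS and 1 for homo over mix. Without mitochondrial and ribosomal genes in the scale, 1 was higher in the CD8 gate for homo over mix. Without cells with Mki67 or Top2a, 1 was lower in the CD4 gate for homo over PBS and 2 higher for mix over PBS. Without cells with Cd74 or H2-Ab1 (added), 1 was higher in the Foxp3 gate for mix over PBS. In Foxp3-gated cells with Cd4 (added), 3 were higher for homo over PBS and for homo over mix.

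The share of CD8 cells with Tcf7 was 4.93% in homo, 4.71% in mix and 4.13% in PBS at 1000 UMIs, and 12.7%, 12.0% and 10.3% without thinning. Depth limits single-cell zeros in every gate, and the 70 and 124 homo cells of the CD4 and Foxp3 gates limit those comparisons.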

Other observations

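Among CD8-gated cells of homo, Myb was higher in proliferating cells than in the others. Thinned CD8 cells with a UMI of Mki67 or Top2a made up 14.8% of homo, 11.6% of mix and 10.9% of PBS, and had 15.5, 7.34 and 7.42 CPM of Myb, from 28, 9 and 11 UMIs. Cells without either gene had 5.08, 3.96 and 4.97 CPM. The log2 ratio of Myb between these classes was 1.61 (0.89 to 2.30) in homo. It held 0 in mix (0.89, -0.35 to 1.97) and PBS (0.58, -0.50 to 1.52). Within the proliferating cells, Myb was 1.06 (0.01 to 2.22) for homo over PBS. For homo over mix the interval held 0 (1.08, -0.04 to 2.35). Lef1 in the proliferating cells had 47.7 CPM in homo, 17.1 CPM in mix and 20.2 CPM in PBS, a log2 ratio of 1.24 (0.62 to 1.89) for homo over PBS. In the cells without either gene Lef1 had 50.6, 46.2 and 37.8 CPM, a log2 ratio of 0.42 (0.24 to 0.60) for homo over PBS and 0.13 (-0.06 to 0.32) for homo over mix. Tcf7 in the proliferating cells had 37.1, 30.2 and 25.6 CPM, below the 67.2, 60.6 and 48.3 CPM of the cells without either gene.

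Cells with both a CD8 gene and Foxp3, which the gates leave out, numbered 258 in homo, 221 in mix and 234 in PBS. They had 15.4, 20.8 and 12.1 CPM of Tcf7, 49.8, 32.1 and 34.7 CPM of Lef1, 57.5, 71.9 and 73.4 CPM of Foxo1 and 15.4, 23.2 and 30.6 CPM of Myb in homo, mix and PBS. Whether these were single cells or doublets was not tested. They are part of the 592, 885 and 938 cells of homo, mix and PBS that were in no gate. That whole set had 55.7, 111 and 87.95 CPM of Tcf7 and 64.5, 96.3 and 75.3 CPM of Lef1.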
